A study of Mus musculus with 8 samples.

Results

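The chemokine genes of mouse blood progenitors were examined in cells transduced with the transcription factor KLF7 and in control cells. The members were all genes whose only symbol in the array's annotation names a chemokine ligand or receptor by family and number (Ccl, Cxcl, Cx3cl or Xcl, and Ccr, Cxcr, Cx3cr or Xcr). They came to 51 of the 19938 genes measured, 34 ligand genes and 17 receptor genes. The genes of the Ccl21 and Ccl27 groups share probe sets that carry several symbols and are not analysed here.

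Chemokines are small secreted proteins that guide migrating cells, and their receptors are seven-helix membrane proteins that signal through inhibitory G proteins. CC ligands have their first cysteines side by side, and CXC and CX3C ligands have other residues between them. In bone marrow the best known pair is CXCL12, made by stromal cells, and its receptor CXCR4, which hold stem cells in their niche. Other pairs draw monocytes, neutrophils or dendritic cells into the blood or into lymph nodes.

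Bone marrow cells of C57Bl/6 mice that were positive for the receptor c-Kit received a lentivirus that expressed KLF7, a Krüppel-like zinc finger factor, or a control virus. After 72 hours the cells without lineage markers and with c-Kit and Sca-1, a fraction enriched for stem cells and early progenitors, were sorted. Their RNA was amplified and hybridised to 4 arrays labelled KLF7 and 4 labelled control. All 8 arrays therefore come from transduced, cultured cells; the labels give no age of the mice and do not say whether arrays came from separate cultures or animals. The p-values therefore speak only of the spread among the 8 arrays, which could be technical, and the number of arrays limits the precision. In bulk RNA, fewer cells of a type and less RNA per cell cannot be told apart.

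The transduced gene checked the labels. The log2 intensity of Klf7 was 10.80 ± 0.55 (SD, n = 4) on the KLF7 arrays and 9.04 ± 1.00 (SD, n = 4) on the control arrays (exact two-sided permutation p = 0.0571, where 0.0286 is the smallest p that 70 splits allow). The library labelled control 2 lay at 10.28, above the library labelled KLF7 2 at 10.19, so every direction here is that of the labels. Of 12 marker genes measured for the sorted fraction, 9 lay above the median of all genes, among them Kit, Cd34 and Ptprc, which encodes CD45, while Slamf1, Procr and Mecom lay below it. Ly6a, which encodes Sca-1, is not analysed here. A higher mean on the KLF7 arrays was found for 10 of the 12, and a lower mean for Hlf and Mecom. Ptprc was higher on every KLF7 array (difference 0.39, SE 0.19). The stem cell transcription factor gene Hlf was the 1 marker of the 12 with an unadjusted p under 0.05. It lay at 6.29, 7.17, 6.72 and 6.50 on KLF7 arrays 1 to 4 and at 7.53, 7.50, 7.25 and 8.03 on control arrays 1 to 4, lower on every KLF7 array (difference -0.90, SE 0.23, limma adjusted p = 0.327). Its part in the results below was not tested.

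Some upstream sequences are shown first, because the genes behind them are neighbours that come up together in the results that follow. Ccl22, Cx3cl1 and Ccl17 are direct neighbours on chromosome 8, with 0 protein-coding genes between them in the RefSeq table. All had higher means on the KLF7 arrays, of which KLF7 3 was highest for Ccl22 and lowest for Ccl17, and KLF7 4 the reverse. Their last 120 bases before the annotated start are given 5′ to 3′ from RefSeq (GRCm38.p6, plus strand), at chr8:94745564-94745683 for Ccl22, chr8:94772060-94772179 for Cx3cl1 and chr8:94810333-94810452 for Ccl17. Capitals mark CACCC, the box that Krüppel-like factors bind, on either strand.
Ccl22: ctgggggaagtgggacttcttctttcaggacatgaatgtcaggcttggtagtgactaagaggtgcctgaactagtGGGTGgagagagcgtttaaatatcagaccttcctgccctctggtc
Cx3cl1: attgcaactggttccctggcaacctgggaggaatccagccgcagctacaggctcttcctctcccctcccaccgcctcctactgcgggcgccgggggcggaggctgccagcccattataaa
Ccl17: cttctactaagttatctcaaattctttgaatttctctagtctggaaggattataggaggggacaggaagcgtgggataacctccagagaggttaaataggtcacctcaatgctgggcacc

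Cxcl3, Cxcl15, Cxcl1 and Cxcl2 lie together on chromosome 5 in that order. Cxcl15 was dim, its arrays numbered 1 lay only 0.085 log2 above the other 6, and its promoter did not hold the run marked below. Cxcl3, Cxcl1 and Cxcl2 were all high on the arrays numbered 1 in both groups. Their last 120 bases before the start are at chr5:90785981-90786100, chr5:90891125-90891244 and chr5:90903779-90903898, again on the plus strand of GRCm38.p6. Capitals mark GGGAATTTCCC, the longest run that all of the 3 windows of 250 bases share, which has the form of a kB site, the element that NF-kB binds.
Cxcl1: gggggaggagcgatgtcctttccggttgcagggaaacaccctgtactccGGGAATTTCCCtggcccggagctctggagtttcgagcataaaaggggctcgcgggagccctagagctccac
Cxcl2: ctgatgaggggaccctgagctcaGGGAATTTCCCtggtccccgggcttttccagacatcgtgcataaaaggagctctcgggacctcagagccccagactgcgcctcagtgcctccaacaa
Cxcl3: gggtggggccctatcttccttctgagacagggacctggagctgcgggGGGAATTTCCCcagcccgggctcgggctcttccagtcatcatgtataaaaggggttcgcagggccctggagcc

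The run starts 71 bases before the start of Cxcl1, 97 before that of Cxcl2 and 73 before that of Cxcl3. Of the 37 members that have a promoter in the RefSeq table, these 3 held it on either strand in the 250 bases before the start, which the choice of the run fixed for them, against 0.0426% of all 32851 promoters of the same length. CACCC occurred in 21 of the 37 members, against 52% of all promoters. No match of CACCC overlaps the run. A match is a description of these letters and not a site shown to be bound. Ccl11, Ccl2, Ccl24, Ccl26, Ccl4, Ccl5, Ccl7, Ccr10, Ccr7, Cxcl11, Cxcl16, Cxcl17, Cxcl5 and Cxcr5 had no entry.

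The comparison asked how expression differs when KLF7 is overexpressed, and no chemokine gene passed the test over all genes. In limma with Benjamini-Hochberg adjustment, 0 of the 51 members and 0% of all 19938 genes passed an adjusted p of 0.05. The smallest adjusted p of a member was 0.29. At an unadjusted p under 0.05 stood 12 members, 10 higher on the KLF7 arrays and 2 lower, against 8.21% of all genes (4.65% higher and 3.56% lower). The 12 were the receptor genes Ccr7, Ccr1, Ccr2 and Ccr6 and the ligand genes Ccl22, Ccl17, Cxcl16, Ccl5, Ccl6 and Cx3cl1, all higher, and Ccl25 and Ccl19, both lower. Without the arrays labelled KLF7 2 and control 2, which overlapped in Klf7, 7 members stood there, against 5.9% of all genes, and 6 of them were among the 12.

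Many chemokine genes were dim, that is, their mean over the 8 arrays lay below 5.84, the median of all genes. Of the 51 members 25 were dim, 15 ligand and 10 receptor genes, and differences between dim genes are compressed on an array. Of the 12 members just named, 11 were among the 26 that were not dim, where 12.1% of all such genes had an unadjusted p under 0.05 (6.83% higher and 5.23% lower). The other was Ccr6. Apart from Ccr6, the dim members differed by -0.33 to 0.28 log2.

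Differences had a median of 0.12 log2 over the 34 ligand genes (23 higher, 11 lower) and of 0.035 over the 17 receptor genes (12 higher, 5 lower), and of 0.0019 over all genes. Single arrays moved these medians by more than 1.5 times. The ligand median was 0.038 without KLF7 1, 0.037 without control 4, 0.19 without control 1 and 0.27 without KLF7 4. The receptor median was 0.022 without KLF7 1 and between 0.070 and 0.25 without any other array. Among genes that were not dim, the median was 0.36 for 19 ligand genes, 0.53 for 7 receptor genes and -0.0092 for all. The groups of 4 did not overlap for 6 members, Ccl22, Ccl9, Ccr7, Ccr1, Ccr2 and Ccr6, against 5.22% of all genes (2.83% higher and 2.38% lower). All 6 were higher on the KLF7 arrays.

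**Figure D1:**
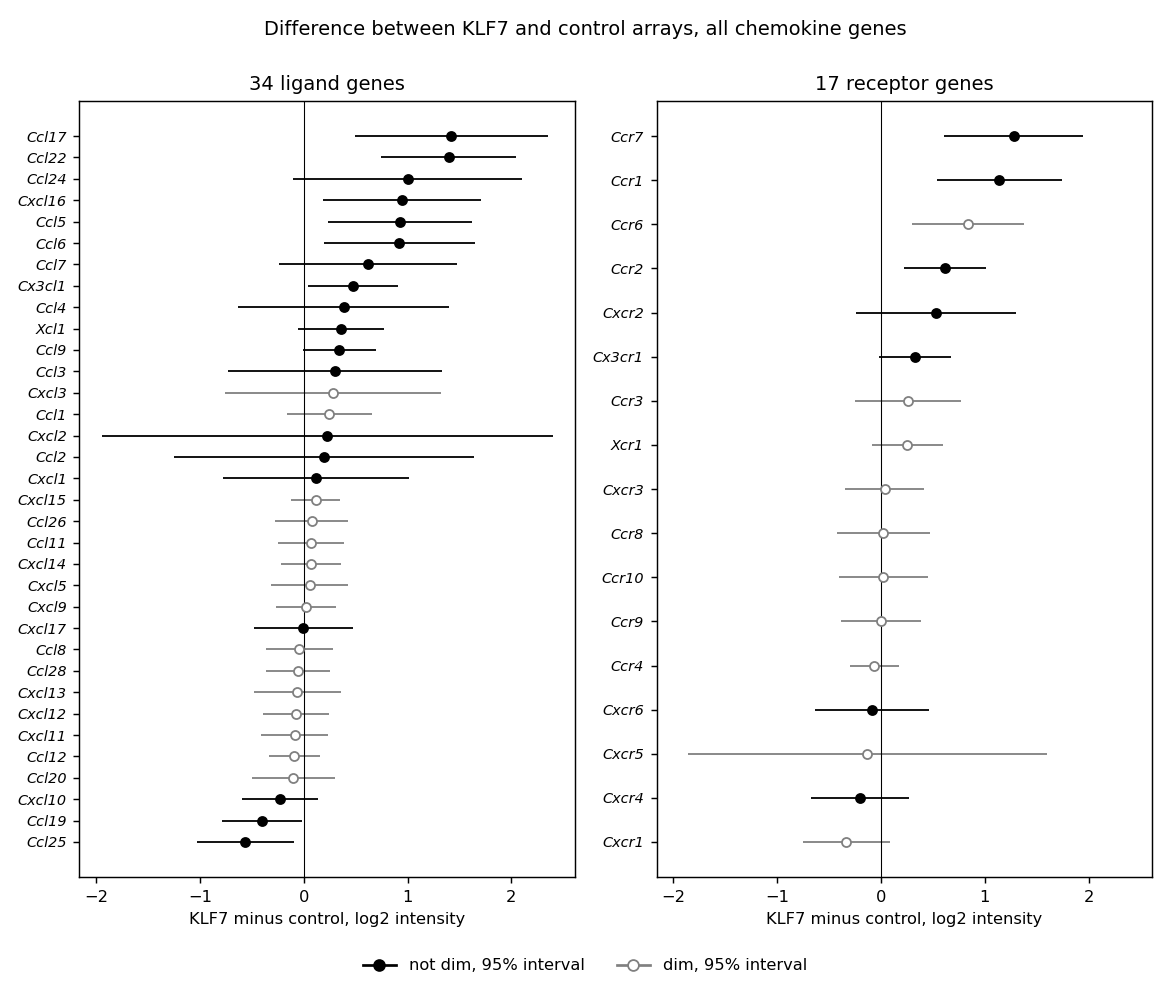
Difference of each chemokine gene between the 4 KLF7 and the 4 control arrays on the log2 intensity scale (x axis), with its 95% interval from limma, ligand genes on the left and receptor genes on the right, and dim genes as open grey points. The interval lies above 0 for 10 genes, led by Ccl17 at 1.42 and Ccl22 at 1.40, and below 0 for Ccl19 and Ccl25.

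Among the receptor genes, Ccr7, Ccr1, Ccr6 and Ccr2 had the largest differences. CCR7 guides mature dendritic cells and naive T cells to lymph nodes. Its gene Ccr7 lay at 9.57, 8.38, 8.75 and 8.02 log2 units on KLF7 arrays 1 to 4 and at 7.34, 7.30, 7.21 and 7.75 on control arrays 1 to 4. Every KLF7 array lay above every control array, and KLF7 1 was the highest. The means were 8.68 ± 0.66 and 7.40 ± 0.24 (SD, n = 4 each), a difference of 1.28 (SE 0.30, 2.42-fold, limma adjusted p = 0.323).

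Ccr1 encodes a receptor for CCL3, CCL5 and related inflammatory ligands on myeloid cells. It lay at 8.74, 7.46, 7.85 and 7.93 on the KLF7 arrays and at 7.17, 7.05, 6.49 and 6.72 on the control arrays, again without overlap. Its difference was 1.14 (SE 0.27, 2.20-fold, limma adjusted p = 0.323). CCR2 is the receptor for CCL2 and CCL7 that brings monocytes out of the marrow. Ccr2 lay at 10.18, 9.71, 9.96 and 10.01 against 9.34, 9.27, 9.20 and 9.58. The KLF7 arrays were again all higher, by 0.62 on average (SE 0.18, 1.53-fold, adjusted p = 0.382), with SDs of 0.19 and 0.16.

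Ccr6, the receptor gene for CCL20 on lymphocytes and some dendritic cells, lay at 6.88, 5.60, 6.05 and 6.35 on the KLF7 arrays and at 5.50, 5.59, 5.18 and 5.28 on the control arrays. The groups were parted by only the gap between KLF7 2 and control 2, and the gene was dim. Its difference was 0.84 (SE 0.24, adjusted p = 0.382). Cx3cr1, the receptor gene for CX3CL1 on monocytes and macrophages, lay at 6.92, 6.90, 7.22 and 6.99 against 6.72, 6.48, 6.90 and 6.63. Its groups overlapped, since control 3 reached the lowest KLF7 arrays, and the difference was 0.32 (SE 0.16, adjusted p = 0.645).

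The receptor best known in stem cells did not stand with these. Cxcr4 lay at 9.76, 9.40, 9.57 and 9.23 on the KLF7 arrays and at 9.73, 9.28, 10.08 and 9.66 on the control arrays. The groups overlapped, and the difference was -0.20 (95% interval -0.67 to 0.27). Its ligand gene Cxcl12 lay below the limit for dim genes on every array, at 4.73, 4.29, 4.58 and 4.13 against 4.51, 4.57, 4.60 and 4.35. The difference of Cxcl12 was -0.08 (95% interval -0.40 to 0.24).

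Cxcr2, the neutrophil receptor gene for CXCL1 and CXCL2, lay at 6.39, 5.98, 7.65 and 6.85 against 6.51, 5.59, 6.63 and 6.00. The groups overlapped, and the interval of its difference of 0.53 ran from -0.24 to 1.30. Without KLF7 3 the difference of Cxcr2 was 0.22, and without control 2 it was 0.34. Ccr9, the receptor gene for CCL25 on thymus-seeding and gut-homing cells, was dim and lay at 4.92, 4.31, 4.79 and 4.78 against 4.69, 5.07, 4.66 and 4.37. Both means were 4.70, and the interval of the difference ran from -0.39 to 0.39. Cxcr6, the receptor gene for CXCL16, differed by -0.09 (95% interval -0.63 to 0.46).

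Among the ligand genes, those for the receptor CCR4 led. CCL22 and CCL17 are made by dendritic cells and macrophages and draw T cells. Ccl22 lay at 7.96, 8.12, 8.38 and 7.89 on the KLF7 arrays and at 6.95, 5.88, 6.53 and 7.41 on the control arrays. The KLF7 arrays were all above the control arrays and closer together, with 8.09 ± 0.22 against 6.69 ± 0.65 (SD, n = 4 each). The difference of 1.40 (SE 0.29, 2.63-fold, limma adjusted p = 0.29) had the smallest p of the 51.

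Ccl17 lay at 7.52, 7.82, 6.12 and 8.19 against 6.04, 5.60, 5.58 and 6.74. The groups overlapped because KLF7 3 lay below control 4, which was the highest control. The difference was 1.42 (SE 0.42, 2.68-fold, adjusted p = 0.387). The third neighbour, Cx3cl1, encodes fractalkine, a ligand that is made on the cell membrane. It lay at 6.75, 6.56, 6.74 and 6.36 against 6.54, 5.86, 5.80 and 6.33, so that controls 1 and 4 came close to or within the KLF7 range. Its difference was 0.47 (SE 0.20, adjusted p = 0.557). Ccr4, the receptor gene for CCL17 and CCL22, lay below the limit for dim genes on every array (4.36 to 4.65).

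Cxcl16 also encodes a ligand made on the cell membrane. It lay at 8.04, 7.24, 6.79 and 6.21 on the KLF7 arrays and at 6.64, 5.89, 5.96 and 6.01 on the control arrays. Array 1 was the highest in each group, KLF7 4 lay below control 1, and the difference was 0.95 (SE 0.34, 1.93-fold, adjusted p = 0.481). Without KLF7 1 it was 0.63.

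Ccl5, Ccl9, Ccl6, Ccl3 and Ccl4 are direct neighbours on chromosome 11. Ccl5, which encodes RANTES, a ligand of CCR1, lay at 8.92, 10.45, 9.30 and 9.52 against 8.58, 8.52, 8.30 and 9.08. Only KLF7 1 lay below the highest control, and the difference was 0.93 (SE 0.31, 1.90-fold, adjusted p = 0.454). Without the arrays labelled KLF7 2 and control 2 it was 0.59.

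CCL6 and CCL9 are myeloid ligands of CCR1 found in mice. Ccl6 lay at 10.06, 9.36, 10.35 and 10.12 against 9.54, 8.12, 9.16 and 9.40. KLF7 2 lay within the control range, and the difference was 0.92 (SE 0.33, 1.89-fold, adjusted p = 0.471). Without control 2 the difference of Ccl6 was 0.61, more than 1.5 times smaller. Ccl9 lay at 8.50, 8.60, 8.75 and 8.70 against 8.22, 8.20, 8.43 and 8.33. These groups did not overlap, with SDs of 0.11 and 0.10, but the difference was 0.34 (SE 0.16, adjusted p = 0.625).

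Both of the lower ligand genes among the 12 lay close to the limit for dim genes. They were also the only members with several probe sets. With the mean of the probe sets in place of the brightest, Ccl25 differed by -0.43 and Ccl19 by -0.41. Ccl25 encodes the thymic and gut ligand of CCR9 and lay at 6.08, 5.58, 6.16 and 6.14 on the KLF7 arrays against 6.70, 6.82, 6.67 and 6.01 on the control arrays. Control 4 lay among the KLF7 arrays, and the difference was -0.56 (SE 0.21, 1.48-fold lower, adjusted p = 0.494). Ccl19 encodes a lymph node ligand of CCR7 and lay at 5.91, 5.83, 6.30 and 5.60 against 6.44, 6.27, 6.44 and 6.10. KLF7 3 lay within the control range, and the difference was -0.40 (SE 0.17, adjusted p = 0.577). Ccl19 and its receptor gene Ccr7 thus differed in opposite directions between the groups.

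**Figure D2:**
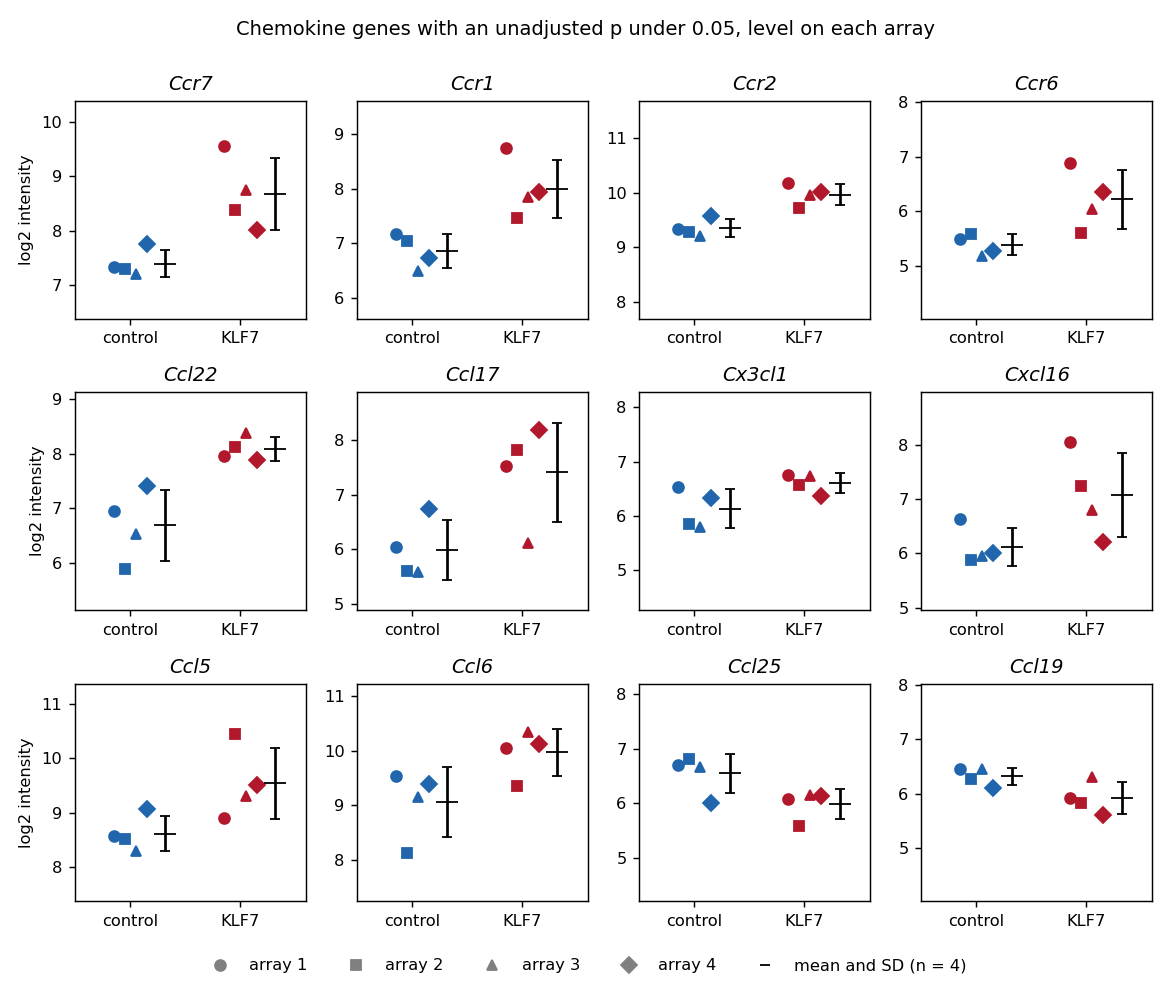
Log2 intensity (y axis, each panel spanning the same number of log2 units) of the 12 chemokine genes with an unadjusted p under 0.05 on each control array (blue) and KLF7 array (red), the marker shape giving the number in the label, with the mean and SD of each group (n = 4) beside the points. The groups do not overlap for Ccr7, Ccr1, Ccr2, Ccr6 and Ccl22, and 1 or more arrays overlap for the other 7.

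Several inflammatory ligand genes differed more between array numbers than between the groups. Cxcl1, Cxcl2 and Cxcl3 encode the neutrophil attractants of CXCR2. Cxcl2 lay at 9.67 on KLF7 1 and 8.52 on control 1, but at 5.89, 4.86 and 5.97 on the other KLF7 arrays and 5.14, 5.89 and 5.94 on the other controls. Cxcl1 lay at 7.46, 5.87, 5.60 and 5.44 against 6.60, 5.65, 5.96 and 5.68. Cxcl3, which was dim, lay at 7.42, 4.98, 5.47 and 5.26 against 6.19, 5.26, 5.10 and 5.45. For all of these genes the arrays numbered 1 were the highest of both groups.

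The mean of the arrays numbered 1 lay 3.48 log2 units above that of the other 6 arrays for Cxcl2, 1.33 for Cxcl1 and 1.56 for Cxcl3, and a distance of 1 or more was reached by no other member and by 1.05% of all genes. Between the groups the 3 genes differed by 0.23 (95% interval -1.94 to 2.40), 0.12 (-0.78 to 1.01) and 0.28 (-0.76 to 1.32). Those wide intervals do not show that the groups were alike. The summed intensity of 11 monocyte and macrophage marker genes, of which Lyz2 was the brightest, was 5658 and 3969 on the arrays numbered 1. This sum was 5590 and 4959 on those numbered 4 and 1634 to 3079 on the others. Its part in these levels was not tested.

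The arrays numbered 4 stood apart in other genes. CCL2 and CCL7 draw monocytes through CCR2, and CCL3 and CCL4 are macrophage inflammatory proteins that draw monocytes and T cells. Ccl2 lay at 9.25, 9.48, 8.75 and 7.32 against 9.09, 9.45, 9.02 and 6.46. Ccl3 lay at 10.42, 10.34, 10.42 and 8.71 against 9.48, 10.55, 10.01 and 8.64. Both genes were lowest on array 4 of each group.

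Ccl4 lay at 8.99, 9.07, 8.56 and 7.12 against 8.06, 8.42, 8.68 and 7.06, and Ccl7 at 6.66, 7.27, 7.12 and 5.71 against 6.37, 6.46, 6.40 and 5.06, with array 4 again the lowest. The opposite held for Cxcr5, the B cell follicle receptor gene, at 4.63, 4.66, 4.03 and 7.05 against 4.70, 4.71, 4.00 and 7.51. The arrays numbered 4 differed from the mean of the other 6 by -2.29 for Ccl2, -1.53 for Ccl3, -1.54 for Ccl4, -1.33 for Ccl7, 2.82 for Cxcr5 and 1.02 for Ccl17. For all genes, a distance of 1 or more was found in 3.68%.

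Between the groups, Ccl2 differed by 0.20 (95% interval -1.25 to 1.64), Ccl3 by 0.30 (-0.73 to 1.33), Ccl4 by 0.38 (-0.63 to 1.40) and Ccl7 by 0.62 (-0.24 to 1.48). Without control 4 the differences of Ccl2, Ccl3, Ccl4 and Ccl7 were -0.48, -0.043, 0.052 and 0.28, and without KLF7 4 they were 0.66, 0.72, 0.82 and 0.94. The directions of Ccl2 and Ccl3 were therefore not settled. The summed intensity of 11 eosinophil, basophil and mast cell marker genes was 1683 and 1450 on the arrays numbered 4, against 9699 to 20311 on the other arrays. That of 11 neutrophil marker genes was 3717 and 3145, against 8626 to 24072. Their part in the levels of these ligand genes was not tested.

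**Figure D3:**
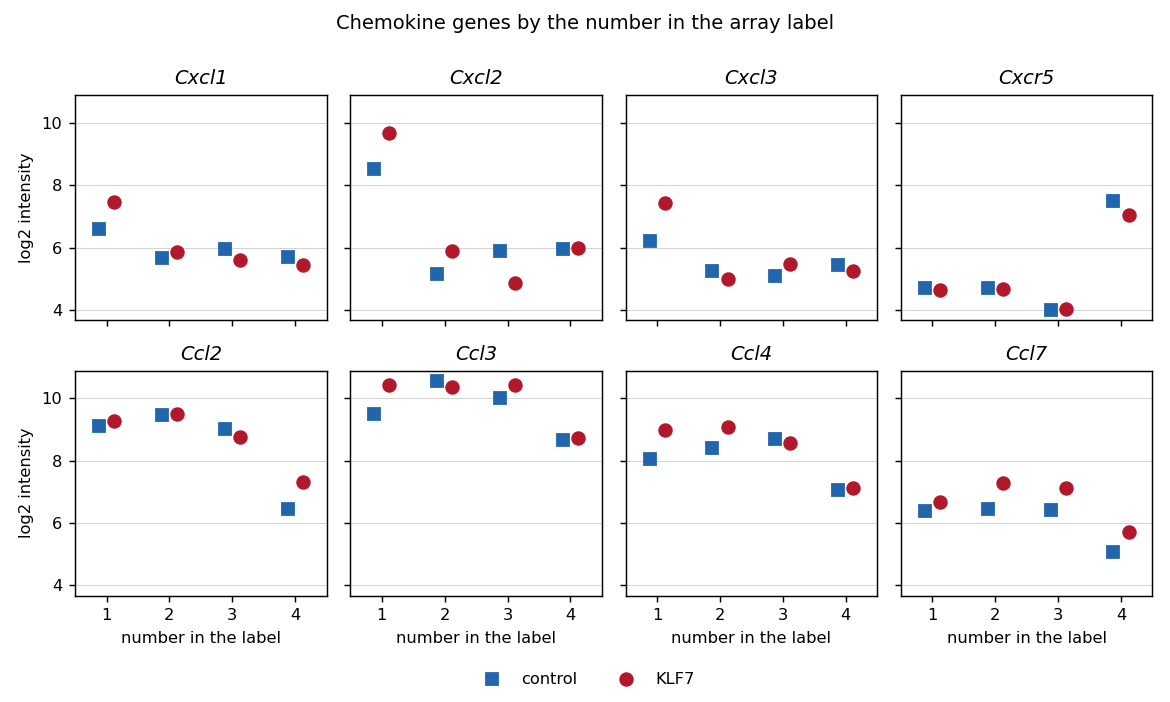
Log2 intensity (y axis) of 8 chemokine genes by the number in the array label (x axis), control arrays as blue squares and KLF7 arrays as red circles. Cxcl1, Cxcl2 and Cxcl3 are highest on the arrays numbered 1 of both groups, Cxcr5 is highest on those numbered 4, and Ccl2, Ccl3, Ccl4 and Ccl7 are lowest there.

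Other members that were not dim showed no difference past an unadjusted p of 0.05. Ccl24, which encodes an eosinophil attractant, differed by 1.00 (95% interval -0.10 to 2.10), with KLF7 4 at 8.58 above the rest, and by 0.32 without both arrays numbered 4. Xcl1, which encodes a ligand for cross-presenting dendritic cells, differed by 0.36 (-0.06 to 0.77), and its receptor gene Xcr1 lay below the dim limit on every array (4.17 to 4.93). Cxcl10 encodes a ligand of CXCR3 that interferon induces. It lay at 6.11, 5.79, 5.59 and 5.67 on the KLF7 arrays and at 5.80, 5.86, 6.14 and 6.26 on the control arrays, with overlapping groups and a difference of -0.23 (-0.60 to 0.13). Cxcl17 encodes a mucosal ligand and differed by -0.0044 (-0.48 to 0.47).

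Genes that act with chemokines were taken from a list of 52, of which 50 were measured. Beside genes that carry or regulate the signals inside the cell, the list held atypical receptors, ligand genes not counted as members, and a protease gene. In limma 0 passed over all genes, and 13 had an unadjusted p under 0.05, all with a higher mean on the KLF7 arrays. That stands against 8.21% of all genes and 12.1% of genes that were not dim (6.83% higher). All 13 were among the genes that carry or regulate the signals inside the cell. They were 3 of 8 G protein genes, 6 of 19 effector genes, 1 of 5 arrestin and kinase genes, and 3 of 7 genes for RGS proteins, regulators of G protein signalling. The 6 with the smallest p were Gnb4, a G protein beta subunit gene (1.23, SE 0.19), Pik3r5, the regulatory subunit gene of PI3-kinase gamma (1.05, SE 0.32), the small GTPase gene Cdc42 (0.50, SE 0.16), Arrb2, an arrestin that ends receptor signals (0.56, SE 0.19), the kinase gene Jak2 (0.77, SE 0.27) and Gnai2, an inhibitory G protein subunit (0.48, SE 0.18). The median of the 50 was 0.36, against 0.0019 over all genes. Of the list, 45 genes were not dim.

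The means of all 6 atypical receptors and their neighbours were higher on the KLF7 arrays, none at an unadjusted p under 0.05, with Ccrl2 at 0.68 (SE 0.33) and the CXCL12 scavenger gene Ackr3, which was dim, at 0.20 (SE 0.20). The platelet ligand genes Pf4 and Ppbp differed by -0.16 (SE 0.57) and -0.30 (SE 0.66). On the arrays numbered 4, Pf4 lay 1.70 and Ppbp 2.06 log2 above the mean of the other 6 arrays. The other ligand genes of the list, Mif and Cklf, differed by -0.37 (SE 0.27) and 0.44 (SE 0.29). Dpp4, which encodes a protease that cuts CXCL12, differed by 0.81 (SE 0.38).

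Marker genes of mature cells were read on the same arrays, and none passed the adjusted threshold in limma. Of 12 dendritic cell marker genes, 9 were higher on average in the KLF7 group and 3 lower, Clec9a (-0.19), Cd209a (-0.12) and Siglech (-0.12). An unadjusted p under 0.05 was found for 6, each of them higher, against 8.21% of all genes and 12.1% of those not dim. They were Itgax, which encodes CD11c, the MHC class II genes H2-Aa, H2-Ab1 and H2-Eb1, their invariant chain gene Cd74, and the transcription factor gene Batf3. The summed intensity of the 12 on KLF7 arrays 1 to 4 was 14203, 8637, 5592 and 10122. On control arrays 1 to 4 it was 4713, 5053, 2168 and 7571. The brightest genes, Cd74, H2-Aa, H2-Ab1 and H2-Eb1, weigh most in this sum. Among the KLF7 arrays, KLF7 1 was the highest for this sum and for Ccr7, Ccr1, Ccr2, Ccr6, Cxcl16 and Cx3cl1. KLF7 3, where the sum was the lowest of the KLF7 group, was highest for Ccl22 and Ccl6 and lowest for Ccl17. Ccl5 was lowest on KLF7 1 and highest on KLF7 2. Among the control arrays, control 4 was the highest for this sum and for Ccl22, Ccl17, Ccl5, Ccr7 and Ccr2. Control 1 was the highest for Ccr1, Cxcl16, Cx3cl1 and Ccl6, and control 2 for Ccr6. Control 3 was the lowest control for the sum and for Ccl17, Ccl5, Ccr7, Ccr1, Ccr2, Ccr6 and Cx3cl1. Control 2 was the lowest for Ccl22, Ccl6 and Cxcl16. The dendritic cell markers Zbtb46, Clec9a, Cd209a and Siglech were dim.

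Of 11 monocyte and macrophage marker genes, 6 had a higher mean and 1, Adgre1, an unadjusted p under 0.05. Their sums, in which the brightest gene Lyz2 weighs most, ranged from 2815 to 5658 on the KLF7 arrays and from 1634 to 4959 on the control arrays. Of 11 T and NK cell marker genes 9 were dim, and none had an unadjusted p under 0.05. The part of such cells in the levels of Ccr7, Ccr1, Ccr2, Ccl22, Ccl17 and Ccl5 was not tested.

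The directions of the 12 members were the same in each of 19 alternative settings, apart from the setting without the dimmer 50% of genes, in which Ccr6 was not tested. With any 1 array left out, Ccl22 lay between 1.13 and 1.64, Ccr7 between 0.98 and 1.50, Ccr1 between 0.89 and 1.32 and Ccr2 between 0.55 and 0.70. Without both arrays numbered 4 these genes were at 1.70, 1.61, 1.12 and 0.68. In those 8 settings that leave out 1 array, no member passed the adjusted threshold in limma.

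**Figure D4:**
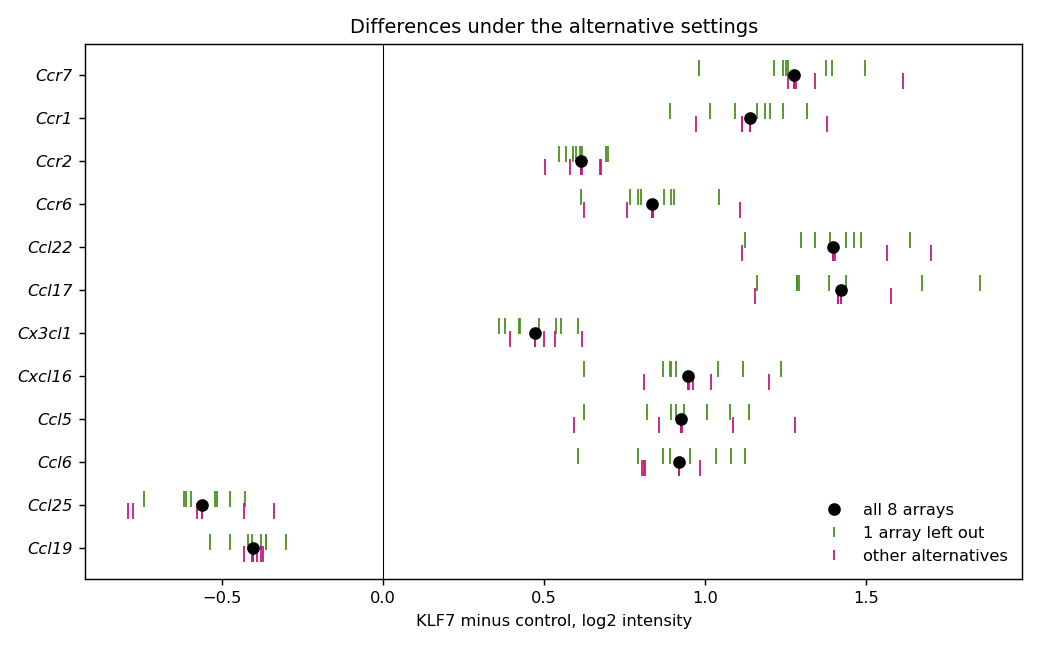
Difference between the KLF7 and control arrays on the log2 intensity scale (x axis) for the 12 chemokine genes with an unadjusted p under 0.05, with all 8 arrays (black points), with 1 array left out in turn (green ticks) and under the other alternatives (magenta ticks). No gene crosses 0, and Ccl25 and Ccl19 stay below it.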

How the data were processed

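The deposited values are probe set intensities. Per the submitters' processing notes, the authors used Affymetrix Expression Console and RMA; no version or build was named. The values ran from 2.20 to 15393, a linear scale, and log2 was taken. RMA corrects background and normalises between arrays, and amplification of the RNA can compress differences between dim genes. The median intensity of an array was 46.2 to 54.1. Of 35554 probe sets, 21789 carried 1 symbol. The probe set of the highest mean stood for each gene, which left 19938 genes; of the members only Ccl19 and Ccl25 had several. All 51 members matched RefSeq (GRCm38.p6) by Entrez number.

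The fit used limma 3.58.1 under R 4.3.3 (lmFit, then eBayes with trend), with the group alone in the design and two-sided tests, with Benjamini-Hochberg adjustment over all genes and a threshold of 0.05. The script was tested on simulated data. Members, lists and alternatives were chosen with earlier results of these data known. Values on all arrays are given for members at an unadjusted p under 0.05, for the 5 brightest and for a set of well-known genes; other members are named if not dim. Cxcl3 and Cxcr5 were named in full, and Ccl2, Ccl4, Ccl7 and Ccl9 given on all arrays, after their values were seen. Other letter patterns were also searched in the promoters and are not described. Alternatives left out arrays, added terms, and changed the weights, the normalization, the filter, the probe sets and the prior. Lists gave sums of intensities of their genes on the linear scale, in which the brightest genes weigh most. Figures were drawn with matplotlib 3.10.9.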

Additional observations from a re-analysis of the deposited data

Results flagged for a closer look

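In 62 groups of 4 arrays, those of 31 named chemokine genes, 6 held 1 array whose gap to its nearest neighbour took more of the group's range than Dixon's 95% limit for 4 values. Chance flags about 1 group in 20, and genes on the same arrays are not independent. On the array labelled control 4, Ccl2 lay at 6.46 and Ccl7 at 5.06, each below the other controls. On the array labelled KLF7 4, Ccl3 lay at 8.71 and Cxcl17 at 5.50, each below the other KLF7 arrays. Ccl25 was low on the array labelled KLF7 2 (5.58), and Cxcl16 was high on the array labelled control 1 (6.64).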

How the results depend on the processing

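No chemokine gene passed over all genes in limma in any setting except the replicate block, in which 90 genes passed and 1 was a member, Ccl17 (difference 1.42, adjusted p = 0.0469). The labels do not say that the numbers pair arrays. The deviations of same-numbered arrays from their group means correlated across genes at 0.35, -0.13, 0.36 and 0.70 for numbers 1 to 4, so the block was not used in the main analysis, and not every array correlated best with its own number. When a batch term marked the arrays numbered 4, 26 genes passed, and with each array left out 0 to 1. Members at an unadjusted p under 0.05 numbered 8 (without control 2, where 6.64% of all genes stood there) to 16 (without KLF7 4, 9.88% of all genes) with each array left out, and 7 without KLF7 2 and control 2. Members without overlap between the groups numbered 13 without both arrays numbered 4, against 15.2% of all genes, and 10 without both numbered 2, against 11.3%. Fewer arrays make separation easier for every gene. The median difference of receptor genes was 0.022 to 0.25 with each array left out (0.25 without control 4) and 0.53 once the dimmer 50% of genes were left out, where 7 receptor genes remained. For ligand genes it was 0.037 to 0.27 with each array left out. By the 95th percentile of olfactory receptor genes (5.22) in place of the median of all genes, 18 members were dim. With the mean of the probe sets, 27 members were dim.

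Of 31 named members, 10 changed sign in some setting, none of them among the 12, and the cause was not tested. With each array left out in turn, Ccl2 ran from -0.48 to 0.66, Ccl3 from -0.043 to 0.72, Ccr9 from -0.11 to 0.13, Cxcl1 from -0.34 to 0.34, Cxcl12 from -0.18 to 0.025, Cxcl17 from -0.16 to 0.17, Cxcl2 from -0.80 to 0.94, Cxcl3 from -0.26 to 0.55, Cxcr5 from -0.79 to 0.62 and Cxcr6 from -0.30 to 0.061. Without both arrays numbered 4, Ccl2 was at -0.023, Ccr9 at -0.13 and Cxcl17 at 0.0079. Cxcl17 was at 0.052 without KLF7 2 and control 2. With array weights Ccr9 was at -0.17, Cxcl2 at -0.071 and Cxcr5 at 0.010. With quantile normalization applied again Ccr9 was at -0.0026 and Cxcl17 at 0.0074. Dim genes limit what these arrays can show, since their signal lies close to the background.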
